A study of Homo sapiens with 4 samples.

Results

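USF1 peaks that were called in both peak lists and lay far from protein-coding genes numbered 863, out of 5336 shared peaks and 14300 peaks of list 1. Chromatin immunoprecipitation and sequencing (ChIP-seq) was done in Huh7 cells, an established line from a human hepatocellular carcinoma, that overexpressed USF1. There were 4 libraries: IP 1 and IP 2 from DNA precipitated with an anti-FLAG antibody, and their inputs, numbered alike, from chromatin before precipitation. List 1 sets IP 1 against input 1 and list 2 sets IP 2 against input 2. The sources used here give neither the promoter that drove USF1 nor whether the replicates were separate cultures, and no library from untagged cells was used here. A peak was a member if it was in list 1, overlapped a list 2 peak by at least 1 bp, lay on chromosomes 1 to 22 or X, and had its centre outside all protein-coding genes. The centre also had to be over 100 kb from the nearest protein-coding gene end and over 1 kb from the ends of all other annotated genes. The members were thus selected on position and on the peak calls of both lists. Their number and their presence in both lists are therefore descriptions and not findings.

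USF1 is a basic helix-loop-helix leucine zipper protein that binds DNA as a dimer, alone or with USF2, at E-box sequences, of which CACGTG is the form it is best known for. It is mostly described as a promoter factor, in liver cells as a regulator of lipid and glucose metabolism. Gene deserts, the long stretches between protein-coding genes, can hold enhancers that act over long distances, and many lie beside genes of developmental transcription factors and cell adhesion proteins. A peak in such a stretch gives no target gene, so the nearest protein-coding genes are named below as landmarks only.

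The name "far from genes" held for protein-coding genes and not for all genes. Of the 863 peaks, 238 had their centre inside an annotated non-coding gene (27.6%, 95% Wilson interval 24.7 to 30.7%), and for 235 of them that gene was a long non-coding RNA. The median distance to the nearest protein-coding gene end was 279140 bp, with quartiles of 167014.5 and 516069.5 bp and a range of 100023 to 2336923 bp. The median distance to the nearest end of another annotated gene was 33129 bp. Peaks inside non-coding genes had median folds over input of 6.925 in list 1 and 7.44 in list 2, and those outside every annotated gene 7.03 and 7.43. LOC124902439, an uncharacterised non-coding gene between REEP3 and CTNNA3 on chromosome 10, held 5 members, and no other non-coding gene held more than 2. The folds of those 5 ranged between 4.64 and 10.99 in list 1 and between 5.24 and 11.11 in list 2.

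At 2 members the peak also covered an annotated start of a long non-coding RNA, although the peak centre was over 1 kb from the ends of that gene. These are the only members whose sequence was at hand, so both promoter windows (RefSeq, GRCh38.p14, 250 bases before to 50 after the start) are shown 5′ to 3′ on the strand of the gene. Capitals mark each CANNTG, the general E-box, where N is any base and matches on either strand coincide. The LINC02359 window lies on the plus strand at chr12:126095742-126096041 and the LINC03007 window on the minus strand at chr7:25750983-25751282.
LINC02359: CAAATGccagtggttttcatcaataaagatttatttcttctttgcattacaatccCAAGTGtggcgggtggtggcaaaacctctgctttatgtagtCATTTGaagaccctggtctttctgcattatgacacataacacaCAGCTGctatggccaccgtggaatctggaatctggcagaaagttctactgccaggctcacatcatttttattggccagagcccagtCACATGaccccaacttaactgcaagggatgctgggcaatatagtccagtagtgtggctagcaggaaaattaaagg
LINC03007: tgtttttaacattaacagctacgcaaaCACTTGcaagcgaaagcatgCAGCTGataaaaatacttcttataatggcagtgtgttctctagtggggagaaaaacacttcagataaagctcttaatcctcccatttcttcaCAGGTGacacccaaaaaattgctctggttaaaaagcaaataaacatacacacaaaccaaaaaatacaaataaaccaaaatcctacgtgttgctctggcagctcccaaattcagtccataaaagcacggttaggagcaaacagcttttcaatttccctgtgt
The LINC02359 window lay wholly within the peak at chr12:126095380-126096394, whose summit was 67 bp from the start in list 1 and 36 bp in list 2. That peak had 58 tags and 4.4-fold over input in list 1, and 67 tags and 8.05-fold in list 2. The LINC03007 window shared 168 of its 300 bases with the peak at chr7:25750514-25751150 (34 tags and 5.11-fold in list 1, 39 tags and 6.67-fold in list 2), and its start was 117 and 130 bp from the summits. The false discovery rate in list 1 was 100% at each of these 2 peaks. In list 2 it was 1.04% at the LINC02359 peak and 9.38% at the LINC03007 peak. CANNTG occurred 5 times in the LINC02359 window and 3 times in the LINC03007 window, and CACGTG occurred in neither. Of 34961 RefSeq promoter windows of the same length, 68.7% held CANNTG and 7.27% held CACGTG. The matches describe these letters and do not show which bases USF1 contacted.

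The libraries kept 43562726 to 47165647 tags after duplicates were removed. All scores, folds, tag counts and false discovery rates (FDRs) of single peaks are the authors'. A tag is a mapped IP read in the peak, the fold is IP tags at the summit over the number the peak caller expected, and the FDR rests on the peaks that appear when IP and input trade places. The lists stood apart: many list 1 peaks had an FDR at the ceiling of 100%, so each value is given for both lists. Among members, the list 2 FDR did not pass 25.5%. List 1 also held many peaks in the first 50 Mb of chromosome 5, and without chromosome 5 the 749 remaining members had median folds of 7.13 and 7.44 and median tags of 43 and 46. An exact two-sided test over 2 lists cannot go below p = 0.5, so differences between position classes are given as both lists' values, with no test.

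The strongest far shared peak lay on chromosome 2 between ACTR3, a subunit of the Arp2/3 complex that nucleates branched actin, and DPP10, an accessory protein of potassium channels. At chr2:114139305-114141304 it had 225 tags in list 1 (exact 95% Poisson interval 197 to 256) and 161 in list 2 (137 to 188). Its fold was 21.64 in list 1 and 21.07 in list 2 with an FDR of 0 in each, 177708 bp from ACTR3. It was the only member above 20-fold in both lists, where 0.525% of all shared peaks stood.

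The next peaks by the lower of the 2 folds were all above 12-fold in each list. At chr20:55459701-55460514, 537250 bp from CBLN4, a secreted organiser of synapses, there were 70 tags in list 1 and 94 in list 2, with folds of 16.85 and 21.77. At chr1:60872466-60873336, 204326 bp from NFIA, a nuclear factor I transcription factor, there were 131 and 175 tags, with folds of 16.16 and 24.91. Both peaks were higher in list 2, and the summits of the 2 lists lay 1 bp apart near CBLN4 and 8 bp apart near NFIA. A peak at chr12:126601253-126602193, 458778 bp from LOC107984449, had 94 and 126 tags and folds of 16 and 18.33. On chromosome 7, a peak at chr7:106484475-106485193 lay 169526 bp from CCDC71L, with NAMPT, an enzyme of NAD synthesis, on its other side (64 and 92 tags, 15.9-fold and 24.44-fold). Another at chr7:52808990-52809815 lay 226231 bp from POM121L12 (65 and 88 tags, 16.38-fold and 15.39-fold).

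Further members of this strongest group lay beside receptor, neuropeptide, cilium and germline genes. A peak at chr3:24690614-24691255 stood between THRB and RARB, which encode the thyroid hormone receptor beta and the retinoic acid receptor beta, 138387 bp from RARB. It had 53 tags in list 1 and 64 in list 2, and folds of 13.68 and 14.95. One at chr7:25458576-25459364, 230484 bp from the neuropeptide gene NPVF, had 69 and 66 tags and folds of 13.99 and 13.11. Both had their values close together in the 2 lists, with FDRs of 22.02% and 10.38% in list 1 against 0.17% and 0.2% in list 2. On chromosome 5, the peak at chr5:13076305-13077813, 613269 bp from the axonemal dynein gene DNAH5, had 133 and 95 tags and folds of 16.93 and 14.85. The peak at chr5:23765810-23767179, 238401 bp from PRDM9, which marks sites of meiotic recombination, had 138 and 100 tags and folds of 12.85 and 13.68. Both of these had more tags in list 1 than in list 2.

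In all, 18 members reached 12-fold in both lists (2.09%), against 3.97% of all shared peaks and 6.4% of those at protein-coding gene ends. At 8-fold or more in both lists there were 173 (20.05%, 17.5 to 22.8%), against 18.2% of all shared peaks, so this share was near the background. In list 1 alone it was 297 members (34.4%) against 26.2% of all shared peaks, and in list 2 alone 344 (39.9%) against 37.7%. Between genes within 100 kb these shares were 26.9% in list 1 and 40.1% in list 2.

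An FDR of 5% or less in both lists was reached by 12 members (1.39%), against 4.76% of all shared peaks and 9.28% of those at protein-coding gene ends. Those near ACTR3, NFIA, LOC107984449 and DNAH5 are given above. A peak 328537 bp from EIPR1 had folds of 11.65 and 12.75 (chr2:2859645-2861222), with summits 633 bp apart. In the desert between SORCS1 and XPNPEP1, a peak at chr10:109287616-109288609 had folds of 11.25 and 13.06. In 5 others the lower fold was below 10. Their folds were 11.14 and 9.82 near the homeobox gene IRX1 (chr5:3801045-3803060), 10.13 and 7.45 near ZP4 (chr1:238142577-238143935), and 9.9 and 6.73 near LOC124901178 (chr5:29816398-29819466). Folds were 16.38 and 6.21 near the kinesin gene KIF2B (chr17:53706314-53707204), and 8.9 and 5.42 near the histone variant gene H3Y1 (chr5:17895089-17899260). In these 5, list 1 was the higher each time.

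List by list, 14 members had an FDR of 5% or less in list 1 (1.62%, 0.969 to 2.70%), where 4.84% of all shared peaks did. In list 2 there were 425 (49.2%, 45.9 to 52.6%), where 63.2% of all shared peaks did. In both lists the far peaks thus had the lowest share of the 5 position classes. At 465 members (53.9%) the list 1 FDR stood at 100%, against 46.4% of all shared peaks. The share was close to that of shared peaks between genes within 100 kb (52.6%) and of those inside protein-coding genes (49.9%). It was 37.4% at protein-coding gene ends. Fewer tags stood beside these FDRs, as given next, and their part in the FDRs was not tested.

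**Figure D1:**
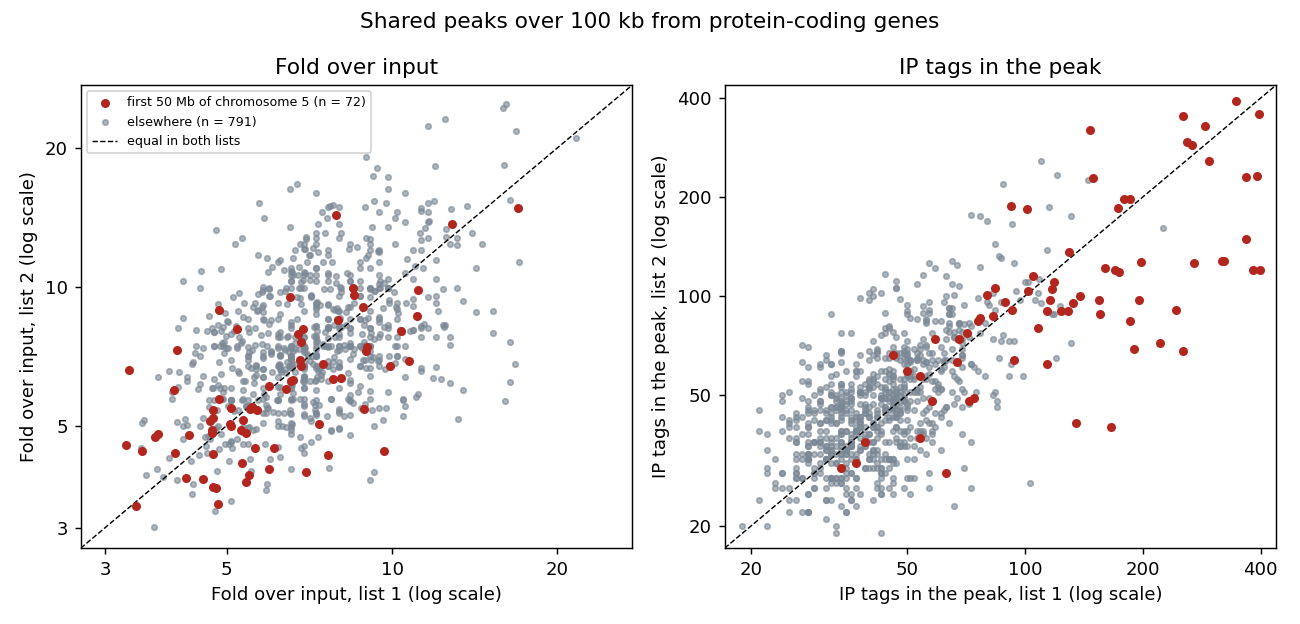
Each point is 1 of the 863 far shared peaks, by fold over input (left) and IP tags (right) in list 1 (x) and list 2 (y), on log axes, with the dashed line where both lists are equal. Red points are the 72 peaks in the first 50 Mb of chromosome 5, which reach the highest tag counts but not the highest folds.

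Far shared peaks had few tags and median folds that were slightly above those of the other classes. The median tag count was 44 in list 1 (quartiles 34 and 58) and 48 in list 2 (36 and 66). Shared peaks at protein-coding gene ends had medians of 85 and 100 tags, and those inside protein-coding genes 54 and 58. Those between genes within 100 kb had 51 and 58. A count of 44 tags has an exact 95% Poisson interval of 32.0 to 59.1, so 1 far peak of median size is known to about this precision. Far peaks had a median fold of 6.97 (list 1) and 7.44 (list 2), against 5.69 and 6.6 at protein-coding gene ends and 6.37 and 7.05 over all shared peaks. Shared peaks between genes within 100 kb were closer, at 6.6 and 7.26. The quartiles of fold overlapped between the classes in both lists, at 5.785 to 8.74 and 5.96 to 9.305 in far peaks against 4.57 to 7.605 and 5.17 to 9.96 at gene ends. The order depended on how stronger peaks were taken. At a caller p of at most 1e-10 in each list, the median fold of far peaks was 1.25 times that at gene ends in list 1 and 1.007 times in list 2. Among peaks at 8-fold or more in each list, a limit set on the compared value itself, the median for far peaks was 0.899 of that at gene ends in list 1 and 0.685 in list 2, and among those with an FDR of 5% or less in each list, where 12 far peaks were left, 0.903 and 0.686. The 95th percentiles were 12.02 and 13.8 in far peaks, and 13.7 and 19.8 at gene ends.

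Width and position also differed in their medians. Far peaks had median widths of 729 bp in list 1 and 752 bp in list 2, against 1088 and 1325 bp at protein-coding gene ends. Tags per kb of width were closer, at 60.7 and 62.5 in far peaks and 74.7 and 70.9 at gene ends. The summits of the 2 lists lay a median of 30 bp apart at far peaks and 50 bp at gene ends. They lay within 100 bp at 729 of 863 far peaks (84.5%), against 75.7% of all shared peaks. The share was 80.7% between genes within 100 kb and 67.2% at gene ends. Width moves with this, and its part was not tested. Across the 863 far peaks, Spearman's rho between the lists was 0.645 for tags and 0.454 for fold, against 0.804 and 0.59 across gene-end peaks. Tags of 1 list share 1 IP library, and the rho values are descriptions across peaks. Fold was higher in list 2 at 487 far peaks (56.4%), against 63.0% of all shared peaks. At 837 (97.0%) the 2 folds were within a factor of 2, near the 94.5% of all shared peaks.

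The level that the caller took as background differed between the classes. In this caller the expected number of tags cannot fall below a genome-wide level, which from the file headers (input tags times the fragment length d, over the genome size) was 2.75 tags in list 1 and 2.82 in list 2. A peak held to that level has a fold that is a whole number of tags over it. This was so, within 0.0144 tags, at 319 far peaks in list 1 (37.0%), against 6.4% of those at protein-coding gene ends. In list 2 it was so, within 0.0148 tags, at 262 far peaks (30.4%), against 11.5%. Over all shared peaks the share was 18.0% in list 1 and 17.7% in list 2. Between genes within 100 kb it was 21.5% and 19.2%, and inside protein-coding genes 20.3% and 17.4%. Spacing alone would place 2.88% and 2.96% of folds on such a step. Far peaks on these steps had median folds of 7.65 and 8.15, set by 21 and 23 tags at the summit, and the other far peaks 6.575 and 7.01. Gene-end peaks not on a step had 5.67 and 6.425. The part of this level in the folds was not tested. At the 72 far peaks in the first 50 Mb of chromosome 5, 3 folds in list 1 and 2 in list 2 were on a step.

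**Figure D2:**
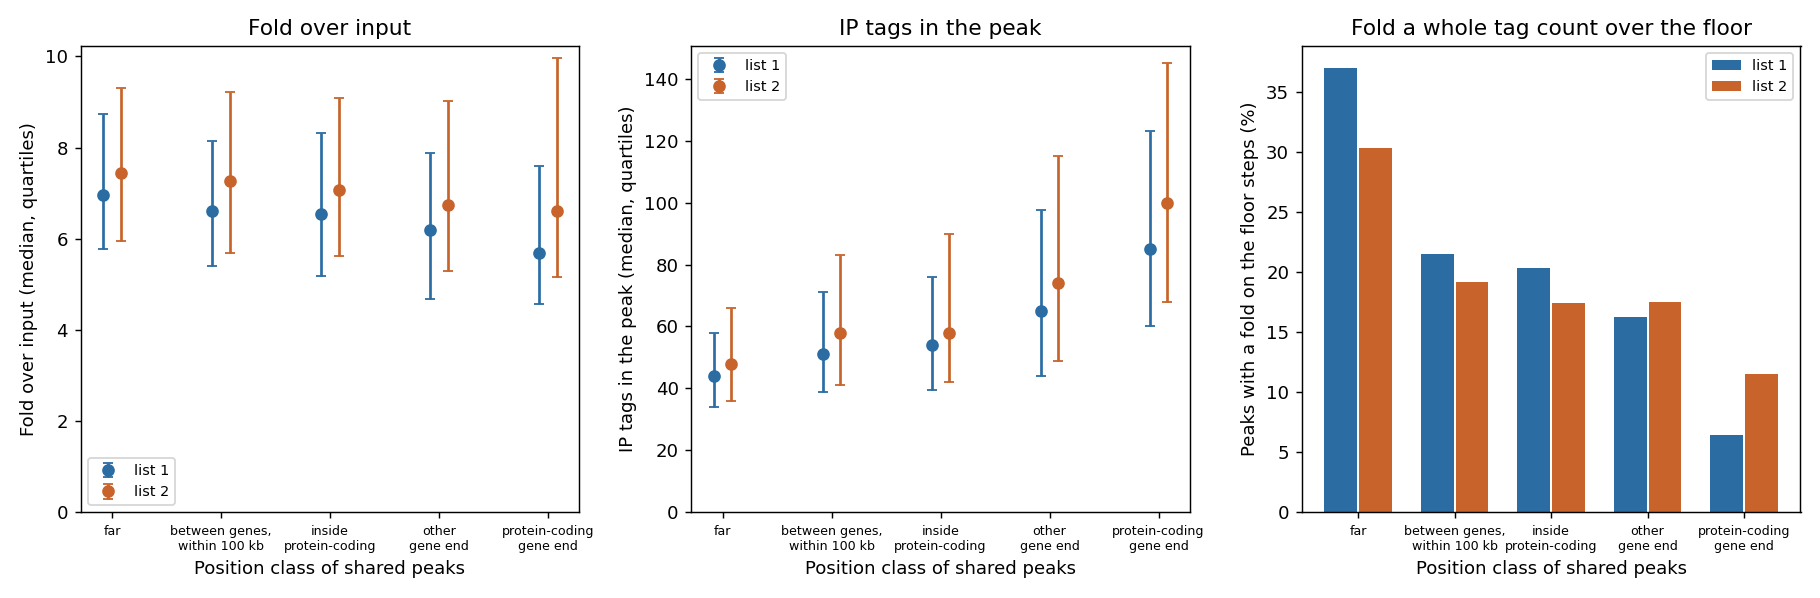
Shared peaks by position class, far peaks at the left, with the median and quartiles of fold (left) and IP tags (middle) and the percent of peaks whose fold is a whole tag count over the genome-wide expected level (right), for list 1 and list 2. Far peaks have the fewest tags (medians 44 and 48), median folds of 6.97 and 7.44 and the highest percent on the steps (37.0 and 30.4%).

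Far peaks of list 1 were seen again in list 2 less often than peaks at genes. Of 3851 far peaks in list 1, 863 were shared (22.4%, 21.1 to 23.8%), against 37.3% of all list 1 peaks and 75.8% of its peaks at protein-coding gene ends. Of 5138 far peaks in list 2, 863 were shared (16.8%, 15.8 to 17.8%), against 19.6% of all list 2 peaks and 36.3% of its gene-end peaks. Inside protein-coding genes the shared share was 28.5% in list 1 and 14.2% in list 2, so far peaks had the lowest share in list 1 but not in list 2. Within the highest 10% of scores, 43.6% of the 250 far list 1 peaks were shared against 96.2% of gene-end peaks, while in list 2 it was 61.6% of 255 against 67.4%. Far peaks that were shared had a higher median fold than far peaks that were not, at 6.97 against 5.805 in list 1 and 7.43 against 5.71 in list 2. The order was the same in every other position class of both lists. At protein-coding gene ends it was 5.69 against 5.165 in list 1 and 6.56 against 5.0 in list 2.

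Beyond 100 kb from protein-coding genes, the shared share of list 1 declined with distance and that of list 2 showed no steady decline. In list 1 it was 27.2% at 100 to 200 kb, 23.05% at 200 to 500 kb, 18.0% at 500 to 1000 kb and 16.6% beyond. With chromosome 5 left out these were 31.1, 28.1, 22.8 and 19.5%, higher in each bin and in the same order. In list 2 the shares were 16.6, 16.8, 17.5 and 15.3%. Median fold changed little over these 4 bins, between 6.92 and 7.28 in list 1 and between 7.08 and 7.44 in list 2. Median tags went down slightly with distance, at 46, 44, 43 and 34 in list 1 and 50, 49, 45 and 41 in list 2. The last bin held 43 shared peaks.

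**Figure D3:**
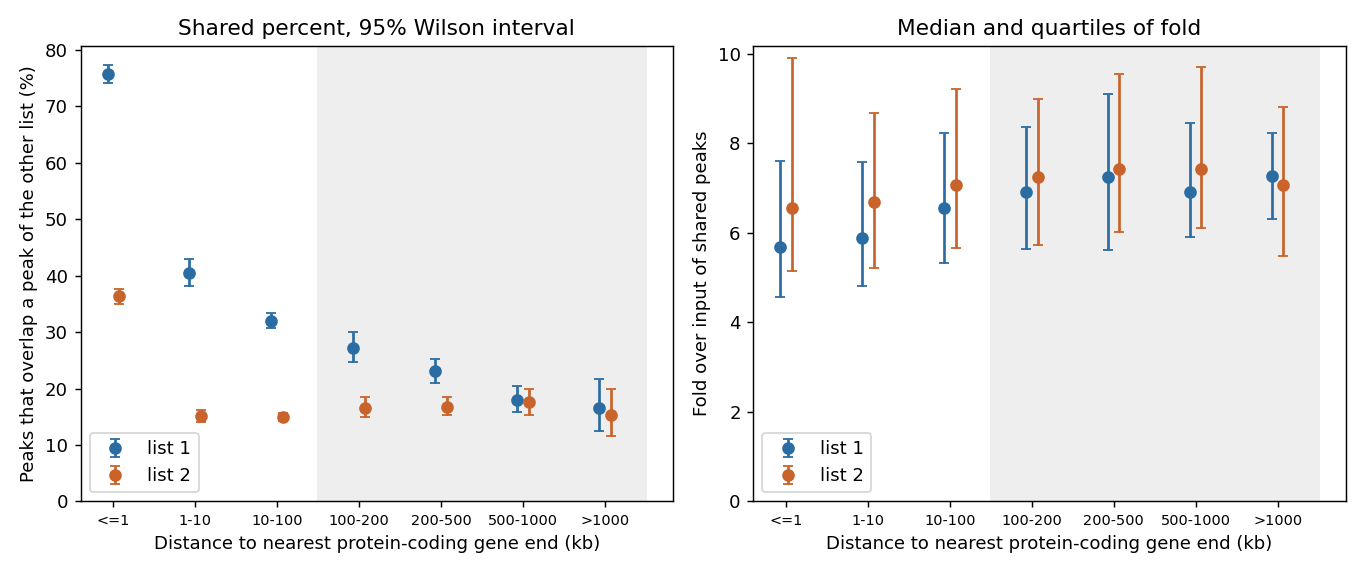
Percent of peaks that overlap a peak of the other list (left, with 95% Wilson intervals) and median fold of shared peaks with quartiles (right), by distance to the nearest protein-coding gene end in kb, for both lists. The grey area holds the far peaks, where the list 1 share falls with distance to 16.6% and the list 2 share stays between 15.3 and 17.5%, while bins below 100 kb include peaks inside genes.

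The farthest members lay on chromosomes 4 and 18. A pair at chr4:33668210-33668752 and chr4:33747809-33748406, between the protocadherin gene PCDH7 and ARAP2, stood 2336923 and 2257297 bp from ARAP2. The first had 32 tags in list 1 and 41 in list 2 with folds of 9.1 and 12.4, and the second 35 and 31 tags with folds of 6.19 and 5.31. Next in distance, a peak at chr18:39801629-39803293, had 103 tags in list 1 and 27 in list 2 and folds of 8.01 and 5.31, 2027773 bp from LOC105372073. At the 100 kb limit, the nearest members had folds of 8.07 and 8.16 (100023 bp from FAM9A), 15.29 and 8.85 (100026 bp from TMTC3) and 6.92 and 5.56 (100473 bp from LMO7). Just inside the limit, and so left out, were peaks with folds of 8.01 and 6.76 (99926 bp from ATP10B), 7.34 and 6.74 (99465 bp from ANKRD28) and 9.7 and 17.32 (99420 bp from PTPRM).

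Some members differed strongly between the lists. Near FGFR1, a fibroblast growth factor receptor, the fold was 4.77 in list 1 and 13.29 in list 2, with 32 and 50 tags (chr8:38583112-38583674). Near MPDZ, a scaffold protein of cell junctions, it was 5.72 and 15.23 with 51 tags in each list (chr9:12993013-12993719), and near ZNF621 it was 6.52 and 16.29 (chr3:40815308-40816046). In the other direction, folds were 16.04 and 5.64 near PLD5 (chr1:242676425-242677189) and 13.16 and 5.16 near BCL11B, a zinc finger factor of T cell development (chr14:98927793-98928644). The KIF2B peak given above also belongs to this group. At MPDZ the tag counts were equal while the folds were not.

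The far peaks were unevenly spread over chromosomes. Between the outermost protein-coding genes of each chromosome, 924 Mb met the distance rule (30.5% of 3024 Mb), and 862 members lay there, or 0.933 per Mb, against 2.13 other shared peaks per Mb of the remainder. With peaks at gene ends left out, the other shared peaks stood at 1.07 per Mb of the remainder, closer to the members. Assembly gaps are part of these lengths. The density was highest on chromosome 5 (1.81 per Mb, 114 peaks) and chromosome 20 (1.71 per Mb, 28 peaks). It was lowest on chromosomes 21 (0.136), 22 (0.152), 4 (0.209) and 14 (0.256), where 3, 3, 15 and 11 members lay. Chromosome 4 was also low in other shared peaks (0.912 per Mb), while chromosomes 21 and 22 were not (1.71 and 2.48 per Mb).

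On chromosome 5 the first 50 Mb, roughly its short arm, held 72 members in 23.8 Mb of far sequence, or 3.02 per Mb, and the remainder 42 members at 1.07 per Mb. Tag counts were far higher in that stretch, with medians of 131.5 in list 1 and 97 in list 2 against 39 and 36 in the remainder of the chromosome. Folds were lower, at 5.59 and 5.445 against 6.92 and 7.41. The 5 members highest by the lower of their 2 tag counts were all there. Counts were 397 and 359 tags near ZNF622 (chr5:16341740-16346097), 347 and 392 near FBXL7 (chr5:15258592-15262386) and 288 and 329 near IRX1. They were 268 and 289 near ADAMTS16 (chr5:4642124-4644815), and 260 and 295 farther from IRX1 (chr5:4108252-4110486). The folds of these 5 members ranged between 6.09 and 11.14 in list 1 and between 4.47 and 9.82 in list 2. All 9 members wider than 2000 bp in both lists, and 31 of the 42 with at least 100 tags in both, lay in this stretch. In the same sequence list 1 had 847 far peaks, of which 8.5% were shared, and list 2 had 298, of which 24.2% were shared. Other shared peaks in the stretch also had high medians, at 159 and 108 tags. The lists give no input tags per peak, so the input level in this stretch was not analysed here. The DNA copy number of the stretch in this line was not analysed here either, and its part in these tags, folds and densities was not tested.

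**Figure D4:**
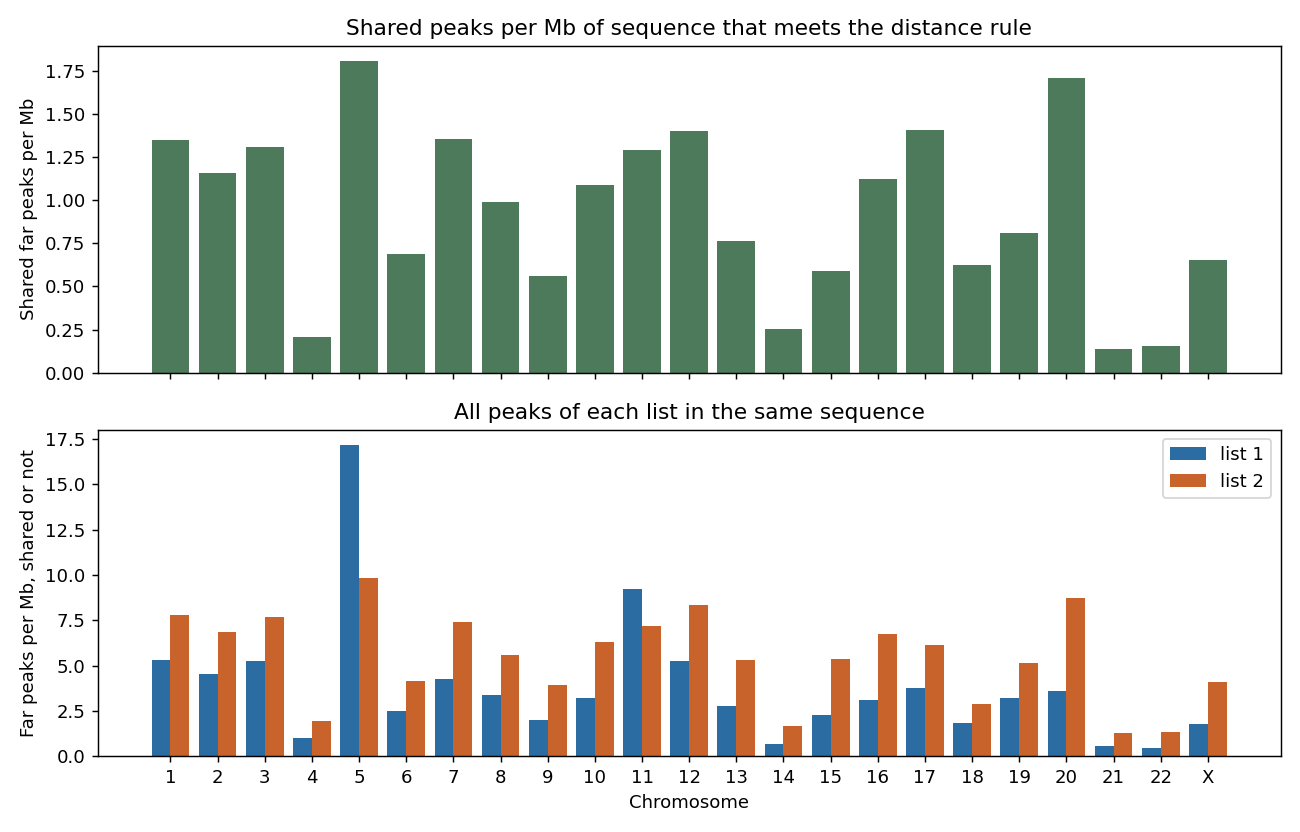
Shared far peaks per Mb of sequence that meets the distance rule (top) and all far peaks of list 1 and of list 2 per Mb of the same sequence (bottom), by chromosome. Chromosome 5 has 1.81 shared far peaks per Mb and the highest list 1 density (17.2 per Mb), where list 2 has 9.85.

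Members gathered in some deserts and stood alone in others. They lay in 459 of 1650 deserts, with 1 member in 266 of these and 5 or more in 26, which held 175 members (20.3%). The deserts with the most had 10 each. Between SORCS1, a sortilin-family receptor, and XPNPEP1, the 10 had folds of 4.89 to 11.29 in list 1 and 5.31 to 13.06 in list 2. Between CTNND2 and DNAH5 they had 4.06 to 16.93 and 4.89 to 14.85, and between the cadherin genes CDH10 and CDH9 3.32 to 8.95 and 3.66 to 9.6. The number of list 1 peaks, shared or not, was 22, 91 and 125 in these 3 deserts, and of list 2 peaks 40, 27 and 29. The last 2 of these deserts lie on chromosome 5, where list 1 was the denser.

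Further deserts held several members, some of them beside regulators of development. Between IRX1 and ADAMTS16 there were 8, with folds of 5.36 to 11.14 and 4.82 to 9.96. Between COBL and POM121L12 there were also 8, with 4.7 to 16.38 and 6.02 to 16.29. Between MYC, the growth-promoting bHLH-ZIP factor, and GSDMC there were 6, named here after their values were seen. The nearest to MYC, at chr8:127853034-127854909 inside the long non-coding RNA gene PVT1, was 111020 bp away and had 123 and 93 tags and folds of 4.05 and 3.8.

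Close pairs of members were few: 21 pairs of neighbours had centres within 10 kb, and 42 members (4.87%) had such a partner. The closest, also named after their values were seen, lay 1602 bp apart and 226067 and 224465 bp from TMEM132C, at chr12:128040731-128041475 and chr12:128042419-128042991. Their folds were 12.56 and 12.79 in list 1 and 13.35 and 14.71 in list 2. Beside the strong CBLN4 peak a weaker one, 3526 bp away, had folds of 3.98 and 5.71. Beside the DNAH5 peak one 7016 bp away had 6.84 and 7.57, and beside the KIF2B peak one 8195 bp away had 8.74 and 7.44. Between consecutive members the median distance to the nearest other member was 284549 bp.

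The protein-coding genes on either side of the members were counted by 7 lists. Genes for homeobox, SOX and FOX factors, which pattern embryos and tissues, flanked 66 of 863 members (7.65%, 6.06 to 9.61%), while such genes flanked 4.0% of the far sequence. Without chromosome 5 it was 55 of 749 members (7.34%), while the 4.0% of far sequence includes chromosome 5. They included IRX1 (10 members), IRX5 (6), MEIS1 (5), and SOX9 and FOXP1 (4 each), and the median fold of the 66 was 6.78 in list 1 and 7.335 in list 2. In the cluster of Iroquois homeobox genes on chromosome 16, 4 members lay between IRX3 and IRX5 and 2 between IRX5 and IRX6. The pair at chr16:55188912-55189575 and chr16:55190738-55191548, 134960 and 133060 bp from IRX6 and chosen after its values were seen, had folds of 6.98 and 5.85 in list 1 and 12.83 and 8.45 in list 2.

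Cadherin and protocadherin genes, which encode cell adhesion proteins, flanked 65 members (7.53%, 5.95 to 9.49%) and 5.32% of the far sequence. Without chromosome 5 they flanked 39 of 749 members (5.21%), while the 5.32% of far sequence includes chromosome 5. CDH10 (14 members), CDH8 and CDH9 (10 each) and CDH11 (8) led this list. C2H2 zinc finger genes flanked 23 members (2.67%) and 3.95% of the far sequence. Olfactory receptor genes flanked 0 of 863 members, which allows a share of up to 0.348% by a limit of 3 counts and 0.443% by the Wilson interval drawn for the lists, and 4.35% of the far sequence. POTE genes flanked 0 members and 0.868% of it.

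Lysosome, autophagy and hepatocyte genes were rare beside members, as they were beside far sequence. Of 50 lysosome and autophagy genes, RRAGC alone flanked a member, and the list flanked 0.0898% of the far sequence. RRAGC encodes a small GTPase through which amino acids activate mTORC1 on lysosomes. The peak, at chr1:38600709-38601538 and 237075 bp from the gene, had 77 tags in list 1 and 123 in list 2 and folds of 12.5 and 23.14, with FDRs of 11.03% and 0.32%. Of 36 hepatocyte genes, CPS1, the entry enzyme of the urea cycle, and ONECUT1, a liver transcription factor, flanked 1 member each. Near CPS1 the folds were 6.56 and 6.75 with 26 and 44 tags (chr2:210877672-210878121), and near ONECUT1 6.55 and 10.29 with 27 and 63 tags (chr15:53031352-53031920). These 3 peaks, the only members flanked by the lysosome and hepatocyte lists, were named after their values were seen. The shares have no test, since members of 1 desert share its flanking genes.

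**Figure D5:**
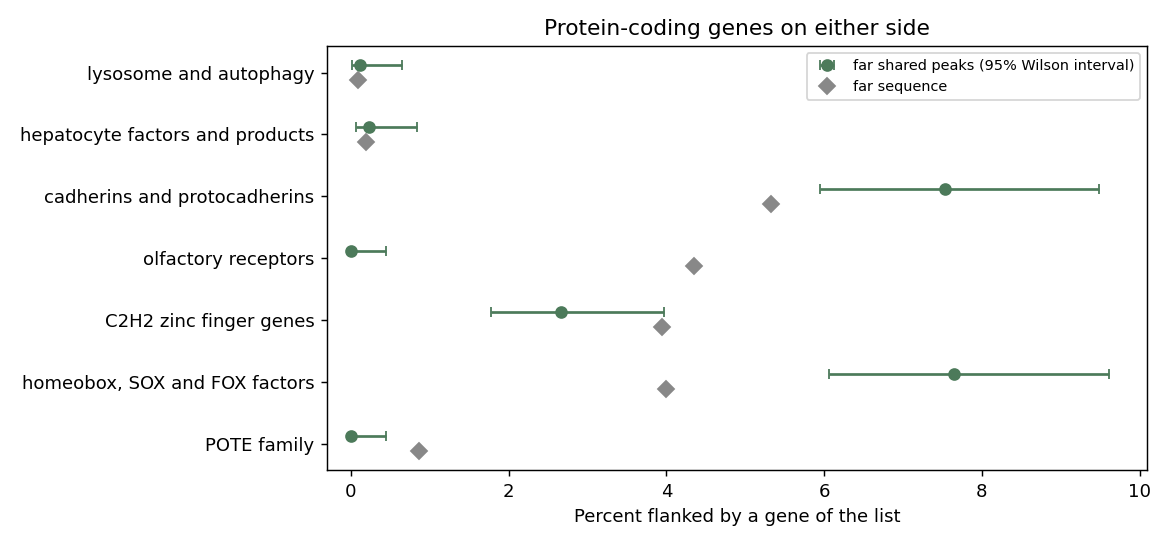
Percent of the 863 far shared peaks flanked on either side by a protein-coding gene of each list (circles, with 95% Wilson intervals) and percent of the far sequence so flanked (diamonds). Homeobox, SOX and FOX genes flank 7.65% of peaks and 4.0% of sequence, and olfactory receptor genes 0 peaks and 4.35% of sequence.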

How the data were processed

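ChIP-seq peaks of FLAG-tagged USF1 in Huh7 cells were analysed as 2 deposited peak lists, 1 per IP, with no grouping beyond the labels. Per the file headers, the authors called peaks with MACS 1.4.2 for each IP against the input of the same number, with peaks kept at p up to 1e-05, the effective genome taken as 2700000000 bp, local windows of 1000 and 10000 bp and at most 1 tag per position, the larger library scaled to the smaller. The submitters' processing notes also list GRCh38, Bowtie2, HOMER and deepTools without saying what each did. The authors deposited, per peak, a count of IP tags (not scaled to library size), a fold (the ratio of summit to expected tags), a score (minus 10 times log10 of the caller's p) and an FDR in percent. Low tag numbers limit single peaks, and intervals reflect counting error only.

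Genes were placed by RefSeq (GRCh38.p14), with 19974 protein-coding and 39124 other genes on chromosomes 1 to 22 and X. The analyses used pandas 2.3.3, numpy 2.4.6, statsmodels 0.14.6 and scipy 1.17.1 under Python 3.11.15, figures matplotlib 3.10.9, and overlap and position functions were tested on simulated data. Where a list 1 peak met 2 list 2 peaks (5 members), the longer overlap was taken. Position classes were assigned in the order protein-coding gene end (within 1 kb), other gene end (within 1 kb), inside a protein-coding gene, and between genes within or beyond 100 kb. The members and gene lists were chosen with earlier results of these data known. Named regions were the 10 highest by the lower fold, the 5 highest by the lower tag count, those at or under 5% FDR in list 1 and also in list 2, the 3 farthest, 3 on each side of the 100 kb limit and the 3 largest fold ratios in each direction; all other regions, deserts and flanking genes in the text were chosen after their values were seen, and 1 region that the rule names is not reported here. No genome was used, so the planned E-box counts at summits were not run.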

Additional observations from a re-analysis of the deposited data

How the results depend on the processing

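The number of far shared peaks (863) stayed within 1.5 times under 7 alternatives, between 625 and 1132. It was 574 beyond 200 kb, 173 at 8-fold or more in each list, 150 at a caller p of at most 1e-10, 12 at an FDR of at most 5%, and 3851 to 5138 when either list stood alone, since nothing then had to be shared. Their share of shared peaks (16.2%) was 21.2% beyond 50 kb, 10.8% beyond 200 kb, 12.7% beyond 10 kb from other genes, 11.7% outside all genes and 15.1% without chromosome 5. It was 17.9% at 8-fold, 10.05% at the stricter p, 4.72% at the FDR limit and 18.8 to 26.9% with 1 list alone. The median fold (6.97 in list 1, 7.44 in list 2) was 9.83 and 10.2 at 8-fold, 9.83 and 9.925 at the stricter p, 12.095 and 12.78 at the FDR limit, and 5.9 (list 1) and 6.0 (list 2) with that list alone. Far over gene-end median fold (1.22 and 1.13) reversed to 0.899 and 0.685 at 8-fold and to 0.903 and 0.686 at the FDR limit, and the cause was not tested. It was 1.25 and 1.007 at the stricter p and 1.06 in list 1 alone. Far over gene-end tags (0.518 and 0.48) were 0.370 and 0.338 at 8-fold and 0.761 and 0.539 at the FDR limit, below 1 throughout. The shared share of list 1 far peaks (22.4%) was 23.9% beyond 50 kb, 20.6% beyond 200 kb, 20.2% with 50% overlap and 27.1% without chromosome 5. It was 28.6% at 8-fold and 57.1% at the FDR limit. In these 2 settings a peak counted as shared only if its list 2 partner also passed the limit, unlike in the 22.4%. The percent with a list 2 FDR of 5% or less (49.2%) was 90.2% at 8-fold, 100% at the stricter p and 22.4% in list 2 alone. At the FDR limit it was 100% by definition, since that limit keeps only such peaks.

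The alternative outside all genes, and both ratios to gene-end peaks, were chosen after seeing the data. No paired analysis was possible because a list compares same-numbered IP and input libraries itself, and holds no input count for any peak. E-box alternatives were not run, since no genome sequence was used. Depth limits single far peaks, at a median of 44 and 48 tags.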

Other observations

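Far peaks that were called in a single list were not part of the comparisons above. The strongest in list 1 lay at chr5:23192122-23193022, 314583 bp from PRDM9, with 110 tags, 27.31-fold over input and an FDR of 0. It stood above every shared far peak in list 1. The next lay 104722 bp from TMEM182 (20.94-fold, chr2:102948199-102948921) and 380419 bp from KIF2B (17.11-fold, chr17:53442182-53442834). In list 2 the strongest lay 458898 bp from TRIB1, a pseudokinase gene (18.06-fold, 80 tags, chr8:125896819-125897783), 289109 bp from NEDD1 (17-fold, chr12:97242465-97243313) and 133472 bp from QDPR (15.46-fold, chr4:17352321-17353525). Of the 2988 far peaks found in list 1 alone, 7 had an FDR of 5% or less (0.234%), and of the 4275 found in list 2 alone, 727 had one (17.0%).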
